A study of Gallus gallus with 6 samples.

Results

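The MEF2 and TEAD transcription factors and the cofactors that bind TEAD proteins were described in chicken leg muscle at 3 stages of development. The genes were chosen by symbol as MEF2A, MEF2C, MEF2D, TEAD1, TEAD3, TEAD4, YAP1, WWTR1 and VGLL2, and all their transcripts in the deposited tables were taken. These 9 genes had 13 transcripts, out of 13365 gene symbols and 19937 transcripts in all, of which 1995 were lncRNAs. TEAD4 had 3 transcripts, TEAD3 and MEF2D had 2 each, and the other genes had 1 each.

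Leg muscle came from Xinghua chickens labelled female, at 11 days of incubation (E11), at 16 days of incubation (E16) and at 1 day post hatch (D1, which the labels name P1), with 2 libraries per stage and 6 in all. No group carried a treatment or a genetic change. Ribosomal RNA was depleted before the total RNA was sequenced, and poly(A) selection was not part of the protocol. For each pair of stages a table gives the FPKM of every transcript, a level scaled to transcript length and to the number of mapped fragments, as 1 value per stage over both libraries.

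MEF2 proteins are MADS-box factors that bind A/T-rich elements in the promoters of muscle genes and act together with the myogenic bHLH factors. TEAD proteins bind the M-CAT element, first described in the promoter of chicken cardiac troponin T, and need a cofactor to activate transcription. YAP1 and WWTR1 (the protein TAZ) are such cofactors, which the kinases of the Hippo pathway hold in the cytoplasm, and VGLL2 is a cofactor enriched in skeletal muscle. The symbol TAZ in the tables stands for the unrelated gene tafazzin and was not taken as WWTR1.

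Since 1 FPKM stands for both libraries of a stage, no spread between libraries can be given and no test was possible for any difference reported here. A transcript was counted as higher or lower where the later over the earlier FPKM, each with 0.1 added, gave a fold of at least 2 in either direction and the FPKM was at least 1 at 1 of the 2 stages. On this log2(FPKM + 0.1) scale the change of transcripts at a low level is understated. The tables were scaled separately. At E11, 12 member transcripts stood 0.829 to 0.830 times as high in the D1 vs. E11 table as in the E16 vs. E11 table. The TEAD4 transcript ENSGALT00000023170, near 0 at E11 and D1, was left out here. The log2 ratios of the 2 steps added up to the direct D1 vs. E11 ratio within 0.0107 for the same 12 transcripts. For these the tables carry the same levels and are not separate measurements. The sum of all FPKM was also unequal between stages, at 1363500 at E16 against 795470 at E11, and the 100 most abundant entries held 72.0% of it at E16 and 63.6% at E11. Scaled to equal sums (TPM), the median log2 ratio of all transcripts moved to -0.76 in E16 vs. E11, to -0.06 in D1 vs. E16 and to -0.84 in D1 vs. E11, from which each ratio must be read under that scaling. On the FPKM scale these medians were 0.00, 0.05 and 0.03. Read counts were not given, so the depth of each value is unknown.

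All 9 genes were found at every stage, with TEAD1 and both MEF2A and MEF2C among the more abundant transcripts. In the E16 vs. E11 table TEAD1 stood at 154 FPKM at E16, above 96.3% of the transcripts that passed the filter, and at 111 FPKM at E11. MEF2A stood at 133 FPKM at E16 and 55.5 FPKM at E11. MEF2C was close to it at both stages. The lowest of the 9 was MEF2D, with 13.9 FPKM at E16 and 11.6 FPKM at E11 over its transcripts.

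The order of the FPKM levels differed most for YAP1. At E11 the order from high to low was TEAD1, YAP1, MEF2C, MEF2A, TEAD4, TEAD3, WWTR1, VGLL2 and MEF2D. At E16 it was TEAD1, MEF2A, MEF2C, TEAD4, TEAD3, YAP1, VGLL2, WWTR1 and MEF2D, so that YAP1 had moved behind both other TEAD genes. At D1 it was MEF2C, MEF2A, TEAD1, TEAD4, TEAD3, YAP1, WWTR1, MEF2D and VGLL2. Without a spread it is not known which neighbours in these orders differ.

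**Figure D1:**
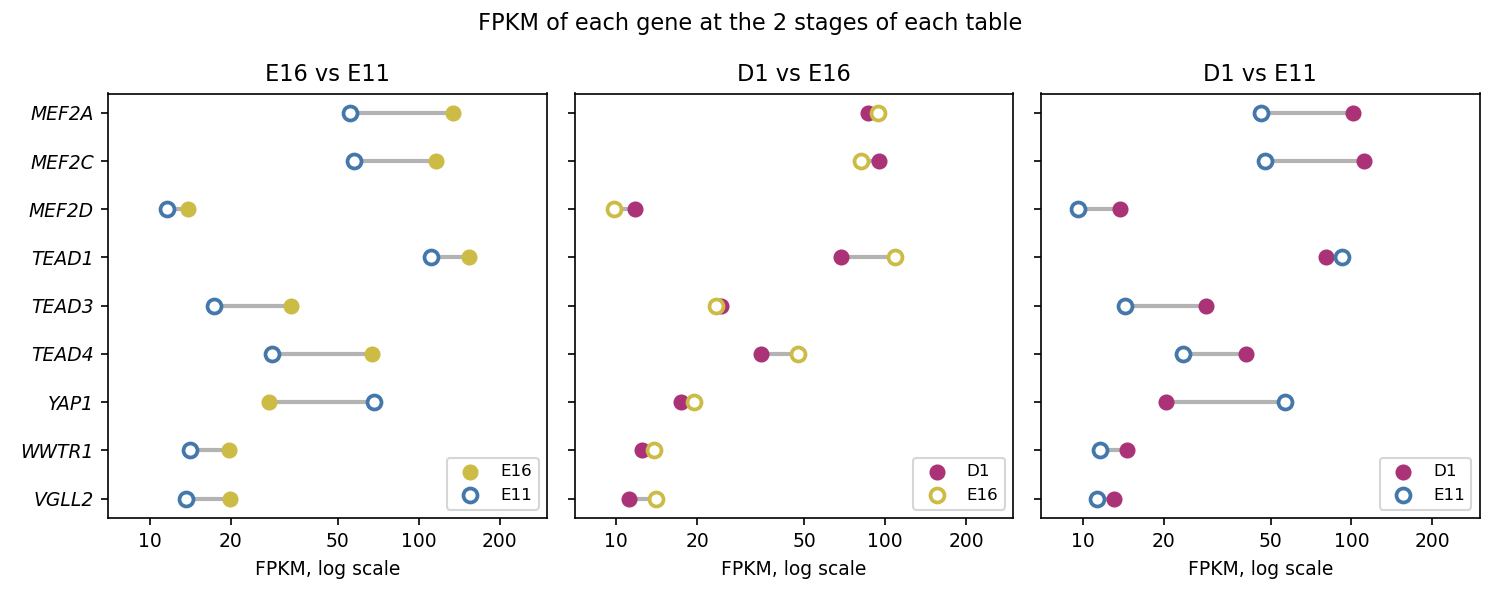
FPKM of each gene, summed over its transcripts, at the 2 stages of each table (log axis); filled points are the later stage and open points the earlier one. MEF2A and MEF2C lie apart by more than 2 times wherever E11 is one of the stages, YAP1 lies apart in the opposite direction, and the points of D1 and E16 lie close together.

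The first comparison, E16 vs. E11, spans the days in which the leg muscle of the embryo fills with fibers. Of the 13 transcripts, 5 were higher and 1 was lower at E16, and 7 lay within a fold of 2. Among all 13483 transcripts that passed the filter 15.1% were higher and 12.8% lower, and under the TPM scaling 7.52% were higher and 36.8% lower. The median log2 ratio of the 13 transcripts was 0.66, against 0.00 over all transcripts. The log2 ratio was above 0 for 12 of the 13 and below 0 for YAP1 alone, although under the TPM scaling it also turned below 0 for both MEF2D transcripts, TEAD1, the minor TEAD3 transcript, VGLL2 and WWTR1.

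MEF2A, a MEF2 gene expressed widely and strongly in differentiated muscle, lies on chromosome 10 from 16525294 to 16575687 (galGal4). Its transcript ENSGALT00000011500 had 133 FPKM at E16 against 55.5 FPKM at E11, a ratio of 2.41 and a log2 ratio of 1.26, above that of 88.3% of all transcripts. MEF2C, the second MEF2 gene in the tables, lies on chromosome Z from 60141410 to 60260421. Its transcript ENSGALT00000023605 had 115 FPKM at E16 against 57.3 FPKM at E11, a ratio of 2.01 and a log2 ratio of 1.01. MEF2C therefore stood just past the fold of 2, and with a pseudocount of 1 its log2 ratio was 0.9973 and fell short of it.

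MEF2D, the third MEF2 gene in the tables, lies on chromosome 25 from 577827 to 603090 and stayed within the fold. Its major transcript ENSGALT00000044870 had 12.3 FPKM at E16 against 10.4 FPKM at E11 (log2 ratio 0.25). The minor one, ENSGALT00000023483, had 1.57 FPKM at E16 against 1.20 FPKM at E11 (log2 ratio 0.37). Of the FPKM of the 3 MEF2 genes, MEF2D held 5.29% at E16 and 9.30% at E11.

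Among the TEAD genes, transcripts of TEAD4 and TEAD3 passed the fold and TEAD1 did not. TEAD4, which chicken workers have also called RTEF-1, lies on chromosome 1 from 74983936 to 75071914. Summed over its transcripts it had 67.0 FPKM at E16 against 28.4 FPKM at E11, a ratio of 2.36. Its major transcript ENSGALT00000023169 carried most of this, with 56.9 FPKM at E16 against 25.5 FPKM at E11 (log2 ratio 1.15). A second transcript, ENSGALT00000030504, had 5.21 FPKM at E16 against 2.82 FPKM at E11 (log2 ratio 0.87) and stayed within the fold.

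The third TEAD4 transcript, ENSGALT00000023170, was seen almost only at E16. It had 4.85 FPKM at E16 against 0.00105 FPKM at E11, and no fold is given against so small an estimate. Its share of the FPKM of TEAD4 was 7.24% at E16 and 0.0037% at E11. The 3 transcripts are assigned to 1 locus, and how the reads they share are divided among them is an estimate of Cuffdiff.

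TEAD3, called DTEF-1 in chicken, lies on chromosome 26 from 33325 to 43701. Its major transcript ENSGALT00000031371 had 27.7 FPKM at E16 against 13.8 FPKM at E11, a log2 ratio of 1.00. It sat on the threshold, which it missed with a pseudocount of 1 (log2 ratio 0.96) and after centring on the median of all transcripts (0.9965). The minor transcript ENSGALT00000001407 had 5.70 FPKM at E16 against 3.56 FPKM at E11 (log2 ratio 0.66). Summed over both, TEAD3 had 33.4 FPKM at E16 against 17.3 FPKM at E11, a ratio of 1.93.

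TEAD1, the most abundant TEAD gene at each stage, lies on chromosome 5 from 7187254 to 7326133. Its transcript ENSGALT00000008698 had 154 FPKM at E16 against 111 FPKM at E11, a log2 ratio of 0.47 that stayed within the fold. Its share of the FPKM of the 3 TEAD genes was 60.5% at E16 and 70.9% at E11.

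Of the cofactors, YAP1 was lower at E16 while WWTR1 and VGLL2 stayed within the fold. YAP1 lies on chromosome 1 from 181878880 to 181959171. Its transcript ENSGALT00000027774 had 27.7 FPKM at E16 against 67.9 FPKM at E11, so that E11 was 2.45 times as high, and the log2 ratio of -1.29 lay above that of only 9.46% of all transcripts. YAP1 was lower by the fold of 2 under each of the scalings run, with a log2 ratio of -2.07 in TPM. It was the only one of the 13 transcripts counted as lower in this comparison. Of the higher ones, MEF2A, MEF2C and the major transcripts of TEAD3 and TEAD4 were within the fold in TPM, with log2 ratios of 0.49, 0.23, 0.23 and 0.38, against the shift of -0.76 of all transcripts.

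WWTR1, the closest relative of YAP1, lies on chromosome 9 from 23264511 to 23304671. Its transcript ENSGALT00000016952 had 19.7 FPKM at E16 against 14.0 FPKM at E11 (log2 ratio 0.48). VGLL2 lies on chromosome 3 from 62989673 to 63010433, and its transcript ENSGALT00000024059 had 19.9 FPKM at E16 against 13.6 FPKM at E11 (log2 ratio 0.55).

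**Figure D2:**
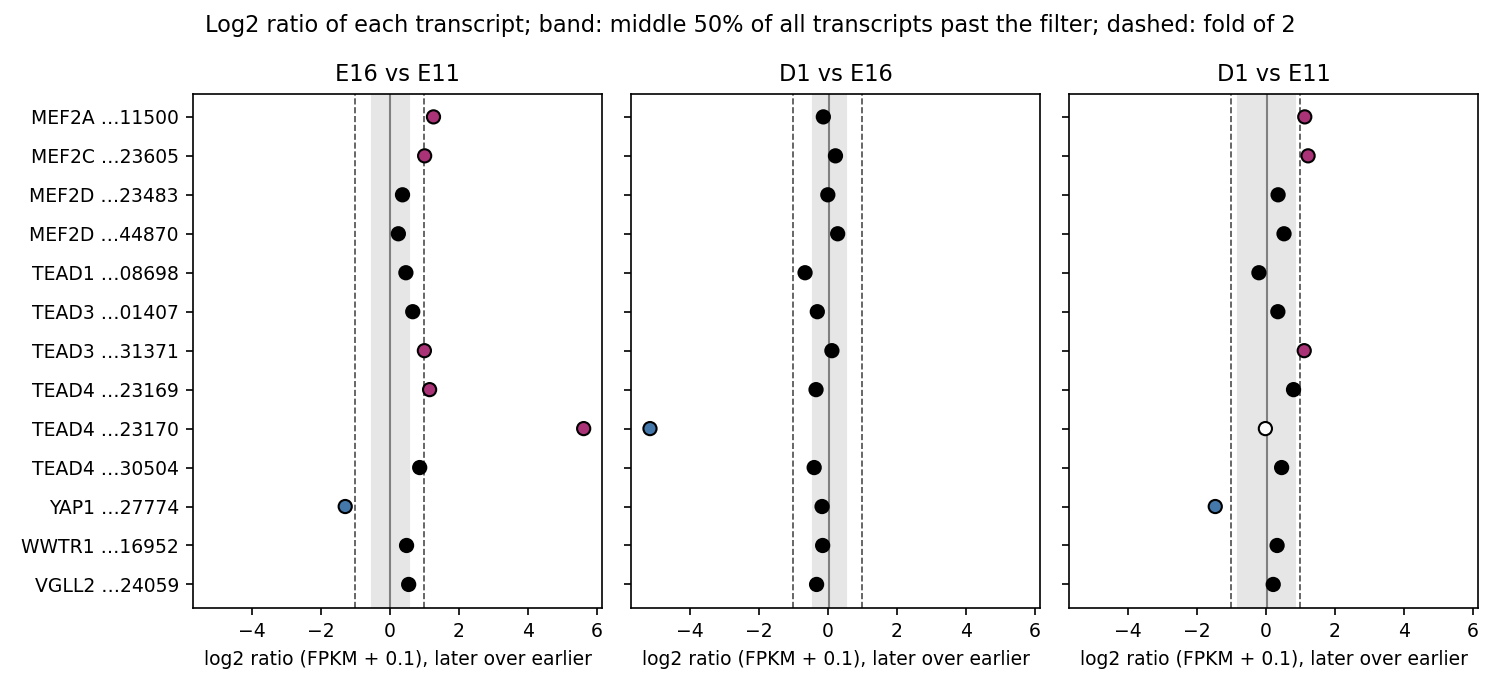
Log2 of the later over the earlier FPKM, each with 0.1 added, for the 13 transcripts in the 3 comparisons; the gray band holds the middle 50% of all transcripts that passed the filter and the dashed lines mark a fold of 2. Red points are higher, blue points lower, black points within the fold, and the white point is a transcript under the FPKM minimum at both stages. YAP1 lies left of the lower line in both comparisons with E11 at -1.29 and -1.46, and in D1 vs. E16 only 1 TEAD4 transcript lies outside the lines.

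The second comparison, D1 vs. E16, spans hatching. Across it 12 of the 13 transcripts stayed within a fold of 2, none was higher, and 1 was lower at D1. Among all 12125 transcripts that passed the filter, 11.6% were higher and 11.4% lower. The median log2 ratio of the 13 transcripts was -0.17, against 0.05 over all transcripts. The log2 ratio was below 0 for 9 of them, and under the TPM scaling also for the minor MEF2D transcript, which stood at 1.11 FPKM at both stages. Without the 100 most abundant entries in the sum it turned below 0 for MEF2C and the major TEAD3 transcript as well.

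MEF2A had 86.1 FPKM at D1 against 94.1 FPKM at E16 (log2 ratio -0.13), and MEF2C had 95.0 FPKM at D1 against 81.4 FPKM at E16 (log2 ratio 0.22). The major MEF2D transcript had 10.6 FPKM at D1 against 8.69 FPKM at E16 (log2 ratio 0.29). The MEF2 genes thus stood at D1 close to where they stood at E16.

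TEAD1 had the largest difference among the transcripts that stayed within the fold, with 68.8 FPKM at D1 against 109 FPKM at E16 (log2 ratio -0.66). The major TEAD4 transcript had 31.7 FPKM at D1 against 40.1 FPKM at E16 (log2 ratio -0.34). The third TEAD4 transcript, ENSGALT00000023170, was the one counted as lower, with 0.000255 FPKM at D1 against 3.46 FPKM at E16. Summed over its transcripts, TEAD4 had 34.4 FPKM at D1 against 47.2 FPKM at E16, which is within the fold. TEAD3 had 24.5 FPKM at D1 against 23.5 FPKM at E16.

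All 3 cofactors were near their E16 level at D1. YAP1 had 17.4 FPKM at D1 against 19.5 FPKM at E16 (log2 ratio -0.17). WWTR1 had 12.5 FPKM at D1 against 13.9 FPKM at E16 (log2 ratio -0.15). VGLL2 had 11.2 FPKM at D1 against 14.0 FPKM at E16 (log2 ratio -0.32).

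The third comparison, D1 vs. E11, spans both steps. Of the 12 transcripts that passed the filter, 3 were higher, 1 was lower and 8 lay within the fold. Among all 13040 transcripts 22.1% were higher and 21.1% lower, and under the TPM scaling 11.4% were higher and 43.7% lower. The transcript left out by the filter was ENSGALT00000023170 of TEAD4, at 0.000246 FPKM at D1 and 0.000906 FPKM at E11. The median log2 ratio of the 12 was 0.41, against 0.03 over all transcripts. It was above 0 for 10 of them, and under the TPM scaling 7 of these turned below 0, leaving MEF2A, MEF2C and the major TEAD3 transcript.

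The 3 that were higher at D1 were MEF2A, MEF2C and the major TEAD3 transcript. MEF2A had 101 FPKM at D1 against 46.1 FPKM at E11 (log2 ratio 1.13). MEF2C had 111 FPKM at D1 against 47.5 FPKM at E11 (log2 ratio 1.23). The major TEAD3 transcript had 24.9 FPKM at D1 against 11.4 FPKM at E11 (log2 ratio 1.12). None of the 3 was past the fold under the TPM scaling, where their log2 ratios were 0.25, 0.35 and 0.24.

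YAP1 was again the only transcript counted as lower, with 20.4 FPKM at D1 against 56.4 FPKM at E11 (log2 ratio -1.46), so that E11 was 2.76 times as high. TEAD1 had 80.7 FPKM at D1 against 92.5 FPKM at E11 (log2 ratio -0.20), and under the TPM scaling it also passed the fold, with a log2 ratio of -1.08. TEAD4 had 40.4 FPKM at D1 against 23.5 FPKM at E11 over its transcripts, a ratio of 1.72. MEF2D had 13.8 FPKM at D1 against 9.59 FPKM at E11, a ratio of 1.43. WWTR1 had 14.7 FPKM at D1 against 11.6 FPKM at E11 (log2 ratio 0.33), and VGLL2 had 13.1 FPKM at D1 against 11.3 FPKM at E11 (log2 ratio 0.22).

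Over the 3 stages the genes differed in where they were highest. With E11 set to 1, MEF2A stood at 2.41 at E16 and 2.19 at D1, TEAD4 at 2.36 and 1.72, and TEAD1 at 1.38 and 0.873. VGLL2 stood at 1.46 at E16 and 1.16 at D1, and WWTR1 at 1.40 and 1.26. These 5 genes were highest at E16, although under the TPM scaling TEAD1, VGLL2 and WWTR1 were highest at E11 and TEAD4 stood at 0.932 at D1. Among 8945 genes with an FPKM of at least 1 at each stage of each table, 19.9% were highest at E16, 35.8% at E11 and 44.3% at D1.

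MEF2C, MEF2D and TEAD3 were highest at D1, although under the TPM scaling MEF2D was highest at E11 and TEAD3 was highest at E16. Relative to E11, MEF2C stood at 2.01 at E16 and 2.34 at D1, TEAD3 at 1.93 and 1.99, and MEF2D at 1.20 and 1.43. Under the TPM scaling TEAD3 stood at 1.12 at E16 and 1.08 at D1. YAP1 was the 1 gene of the 9 highest at E11, at 0.408 at E16 and 0.362 at D1. Differences such as that of MEF2A between E16 and D1 are small, and no spread between libraries is known against which to read them.

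**Figure D3:**
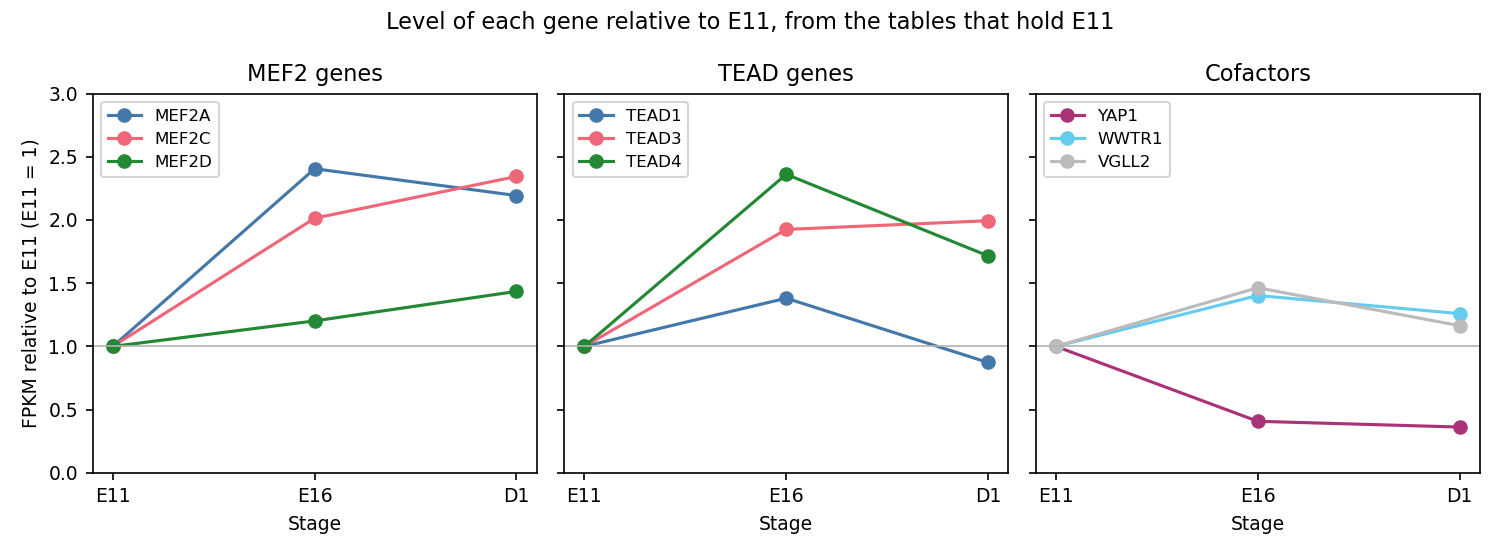
FPKM of each gene relative to E11 (E11 = 1), summed over its transcripts and taken from the 2 tables that hold E11, in 3 panels for the MEF2 genes, the TEAD genes and the cofactors. YAP1 lies under 0.5 at E16 and D1, while MEF2A, MEF2C and TEAD3 lie near or above 1.9 at both.

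Ratios between genes of the same stage do not depend on how a table was scaled, which leaves the makeup of each family as a firmer description in that respect. They are still values of bulk tissue, in which markers of several tissues differed between the stages, as given further on. YAP1 stood 4.84 times as high as WWTR1 at E11, 1.41 times at E16 and 1.39 times at D1. YAP1 held 82.9% of the FPKM of this pair at E11, 58.4% at E16 and 58.2% at D1. Both values were lower at E16 than at E11 and stood close together at E16 and D1.

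YAP1 and WWTR1 together had 0.522 times the FPKM of the 3 TEAD genes at E11, 0.186 times at E16 and 0.234 times at D1. YAP1 was 5.00 times as abundant as VGLL2 at E11, 1.39 times at E16 and 1.56 times at D1. The cofactor YAP1 was thus less abundant at E16 and D1 relative to the TEAD factors and relative to the other cofactors.

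Among the TEAD genes, TEAD1 held 70.9% of the FPKM at E11, 60.5% at E16 and 53.9% at D1. TEAD4 held 18.0% at E11, 26.3% at E16 and 27.0% at D1, and TEAD3 held 11.0%, 13.1% and 19.2%. The share of TEAD1 was lower at each later stage, and that of TEAD3 and TEAD4 was higher.

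The MEF2 family was shared between MEF2A and MEF2C at every stage. MEF2C stood 1.03 times as high as MEF2A at E11, 0.864 times at E16 and 1.10 times at D1. MEF2D held 9.30% of the FPKM of the family at E11, 5.29% at E16 and 6.09% at D1.

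**Figure D4:**
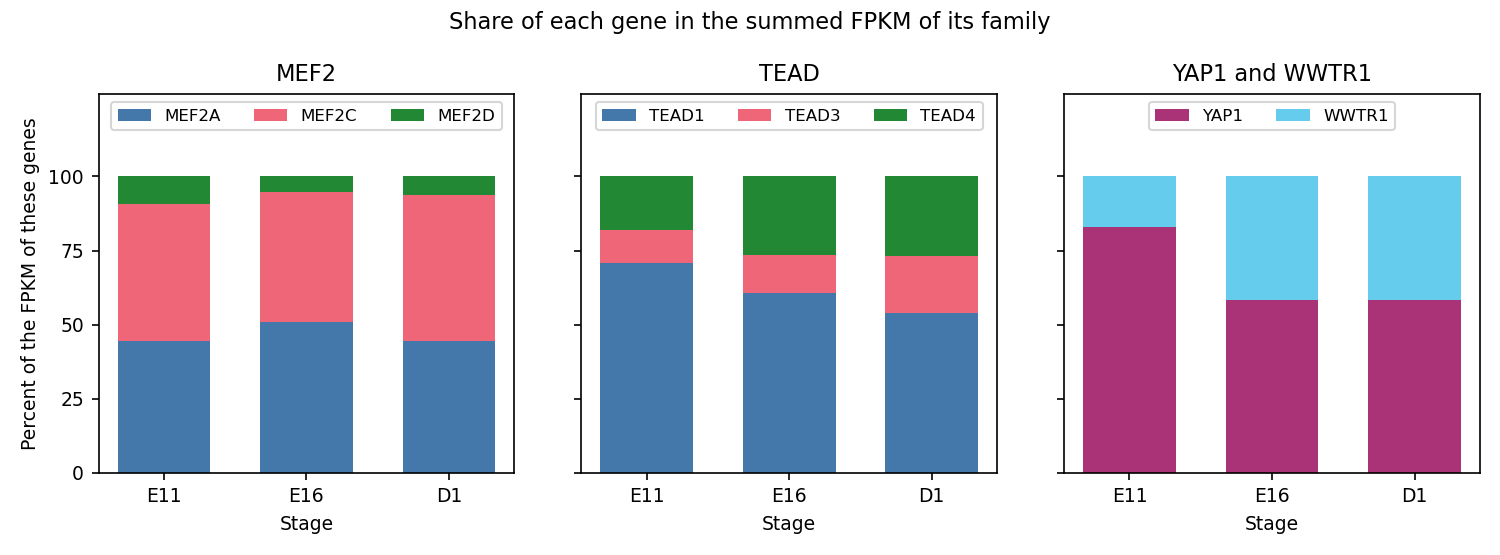
Share of each gene in the summed FPKM of its family, in percent, at E11, E16 and D1, for the MEF2 genes, the TEAD genes, and YAP1 with WWTR1. The part of YAP1 is 82.9% at E11 and close to 58% at E16 and D1, and the part of TEAD1 is lower at each later stage.

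Within genes with several transcripts the major transcript stayed the same at all stages. Transcript ENSGALT00000023169 held 90.1% of the FPKM of TEAD4 at E11, 85.0% at E16 and 91.9% at D1. The minor TEAD3 transcript ENSGALT00000001407 held 20.5% of TEAD3 at E11, 17.1% at E16 and 13.2% at D1. The minor MEF2D transcript held 10.3%, 11.3% and 9.45%.

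Of 5 listed family members outside these 9 genes, 3 were found, VGLL4, VGLL3 and VGLL1, and no values are given here for MEF2B and TEAD2. VGLL4, a member that competes with YAP1 for TEAD proteins, had 38.7 FPKM at E16 against 47.3 FPKM at E11 (log2 ratio -0.29), and at D1 it had 21.1 FPKM against 39.2 FPKM at E11 (log2 ratio -0.89). VGLL3 had 22.3 FPKM at E16 against 20.8 FPKM at E11 (log2 ratio 0.10). VGLL1 was listed at 0 at E16, against 2.02 FPKM at E11. Each of VGLL4 and VGLL3 was more abundant than VGLL2 at E16 and at E11.

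The Hippo pathway, whose kinases STK3, STK4, LATS1 and LATS2 restrain YAP1 and WWTR1, was described by a list of 37 genes of which 33 were in the tables and passed the filter in E16 vs. E11. For such lists each gene is represented by its most abundant transcript. None was higher and 4 were lower at E16, and among all 10617 genes 12.7% were higher and 11.5% lower. The median log2 ratio of the list was -0.22, against -0.01 over all genes. Under the TPM scaling 16 genes of the list were lower and none was higher, where 36.4% of all genes were lower and 5.56% higher. In the FPKM values the part of the list that was lower was close to that of all genes. All 4 lower genes encode giant cadherins, which lie upstream of the pathway, a grouping made after their values were seen. FAT2 had 0.126 FPKM at E16 against 3.13 FPKM at E11 (log2 ratio -3.83), DCHS1 had 5.33 FPKM at E16 against 17.4 FPKM at E11 (log2 ratio -1.69), and FAT4 had 37.8 FPKM at E16 against 82.8 FPKM at E11 (log2 ratio -1.13). FAT3, the fourth of them, had a log2 ratio of -1.40.

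The kinases and their partners stayed within the fold of 2. STK3 had 71.9 FPKM at E16 against 39.4 FPKM at E11 (log2 ratio 0.87). STK4 had 11.9 FPKM at E16 against 16.3 FPKM at E11 (log2 ratio -0.45), and LATS1 and LATS2 had log2 ratios of -0.13 and 0.24. These kinases were named after their values were seen. NF2 (merlin), which activates the pathway at the membrane, had 63.7 FPKM at E16 against 71.5 FPKM at E11 (log2 ratio -0.16). FAT1, another giant cadherin, had the highest FPKM of the list when both stages were added, with 56.1 FPKM at E16 against 85.5 FPKM at E11 (log2 ratio -0.61).

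Across hatching, in D1 vs. E16, the list had no higher gene and 2 lower genes among 32 that passed, with a median log2 ratio of -0.08, where 10.4% of all 9859 genes were higher and 9.59% lower. The 2 lower genes were FAT3, with 0.760 FPKM at D1 against 3.60 FPKM at E16, and FAT4, with 11.4 FPKM at D1 against 26.7 FPKM at E16. In D1 vs. E11, 1 of 33 genes was higher and 7 were lower, with a median of -0.48, where 20.4% of all 10474 genes were higher and 19.6% lower (9.69% and 43.3% under the TPM scaling, where 20 genes of the list were lower and none was higher). The higher gene was AMOTL1, which encodes a junction protein that binds YAP1, with 24.8 FPKM at D1 against 7.55 FPKM at E11 (log2 ratio 1.70). The lower ones, in the FPKM values again a part close to that of all genes, held the same 4 cadherins, FAT2, FAT3, FAT4 and DCHS1. They also held AMOT, DLG5 and MAP4K4.

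Genes that YAP1 and TEAD proteins are known to activate were mostly within the fold in E16 vs. E11 in the FPKM values. Of 24 listed genes 19 were found. Of the 18 that passed, 2 were higher and 1 was lower, with a median log2 ratio of -0.25, beside 12.7% and 11.5% of all genes. Under the TPM scaling 2 were higher and 9 lower, beside 5.56% and 36.4% of all genes. NT5E (an ectonucleotidase) had 22.2 FPKM at E16 against 5.99 FPKM at E11, and ANKRD1 (a titin-binding ankyrin repeat protein induced by stretch) had 15.0 FPKM at E16 against 4.11 FPKM at E11. BIRC5 (survivin, which acts in cell division) was lower, with 15.3 FPKM at E16 against 33.7 FPKM at E11. The most abundant gene of the list at both stages, CCDC80, had 151.9 FPKM at E16 against 97.0 FPKM at E11 (log2 ratio 0.65).

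Across hatching a few of these genes stood far apart. In D1 vs. E16, 4 of 18 were higher and 2 lower, with a median of 0.31, beside 10.4% and 9.59% of all genes. ANKRD1 had 379.7 FPKM at D1 against 10.6 FPKM at E16 (log2 ratio 5.15). CYR61, a matrix protein and classic YAP1 target, had 56.6 FPKM at D1 against 3.88 FPKM at E16 (log2 ratio 3.83). The other higher genes, named after their values were seen, were its relative CTGF, with 67.9 FPKM at D1 against 8.29 FPKM at E16, and MYOF (myoferlin), with 14.8 FPKM at D1 against 6.47 FPKM at E16. BIRC5 and NT5E were lower at D1, with 2.03 FPKM at D1 against 10.8 FPKM at E16 for BIRC5 and 3.78 FPKM at D1 against 15.7 FPKM at E16 for NT5E. YAP1 itself had a log2 ratio of -0.17 in the same table.

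In D1 vs. E11, 5 of the 18 genes were higher and 3 lower, with a median of 0.18 that turned to -0.70 under the TPM scaling, where 3 were higher and 8 lower. Over all genes 20.4% were higher and 19.6% lower, and 9.69% and 43.3% under the TPM scaling. ANKRD1 had 445.7 FPKM at D1 against 3.41 FPKM at E11, and CYR61 had 66.4 FPKM at D1 against 7.01 FPKM at E11. BIRC5 had 2.38 FPKM at D1 against 28.0 FPKM at E11, and ASAP1 (an Arf GTPase-activating protein) had 3.89 FPKM at D1 against 11.6 FPKM at E11.

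The genes on which MEF2 is known to act in muscle, 14 of which were found out of 23 listed, were mostly higher at the later stages. This list, like the others, was chosen with earlier results of these data known. In E16 vs. E11, 12 of the 14 that passed were higher and none was lower, with a median log2 ratio of 2.47, and under the TPM scaling 10 were higher and none lower, with a median of 1.69. Over all genes 12.7% were higher and 11.5% lower, and 5.56% and 36.4% under the TPM scaling. MYOM2 and MYOM1 encode proteins of the M band. MYOM2 had 752.8 FPKM at E16 against 62.8 FPKM at E11, and MYOM1 had 497.8 FPKM at E16 against 86.0 FPKM at E11. DES (desmin) had 451 FPKM at E16 against 116 FPKM at E11. The largest ratios were those of SRPK3, a muscle kinase of splicing factors, with 48.0 FPKM at E16 against 1.70 FPKM at E11, and LMOD2 (leiomodin, which lengthens thin filaments), with 115 FPKM at E16 against 6.06 FPKM at E11. The genes that stayed within the fold were MYOG, with a log2 ratio of -0.18, and SMYD1, with 0.56.

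Across hatching, 8 of these 14 genes were higher and 2 lower at D1, with a median of 1.03, beside 10.4% and 9.59% of all genes. With the TPM scaling 5 were higher and 2 lower, beside 8.79% and 11.1% of all genes. Without the 100 most abundant entries in the sum 3 were higher and 2 lower, beside 7.27% and 14.1%. HSPB7, a small heat shock protein of muscle, had 179.6 FPKM at D1 against 6.09 FPKM at E16, and LMOD2 had 222 FPKM at D1 against 81.1 FPKM at E16. MYOG (myogenin) was lower, with 1.47 FPKM at D1 against 10.7 FPKM at E16, and so was SRPK3, with 8.61 FPKM at D1 against 33.9 FPKM at E16. In D1 vs. E11, 13 were higher and MYOG was lower, with a median of 2.78, beside 20.4% and 19.6% of all genes. Under the TPM scaling 12 were higher and 1 lower, beside 9.69% and 43.3% of all genes. HSPB7 had 211 FPKM at D1 against 0.549 FPKM at E11. Many genes of this list are muscle fiber genes, and 2 of them (DES and MYOM1) are also among the fiber markers given further on.

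Genes with M-CAT elements in their promoters were few in the tables. Of 9 listed genes 6 were found and 5 passed. Of these 5, 4 were higher and none lower in E16 vs. E11, with a median of 1.75. Under the TPM scaling 2 were higher and 1 lower. Of all genes 12.7% were higher and 11.5% lower, and 5.56% and 36.4% under the TPM scaling. ACTA1 (skeletal actin) had 15838 FPKM at E16 against 232 FPKM at E11, ACTC1 (cardiac actin) 1071 FPKM at E16 against 356 FPKM at E11, and MYH7B (a slow myosin heavy chain) 291 FPKM at E16 against 34.3 FPKM at E11. TNNT2 (cardiac troponin T) had 370 FPKM at E16 against 555 FPKM at E11 (log2 ratio -0.58). Of these genes, ACTA1 is also among the fiber markers given further on.

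In D1 vs. E16 the M-CAT genes again differed in direction. Of these 5, 1 was higher and 2 were lower at D1 than at E16, with a median of 0.35, beside 10.4% and 9.59% of all genes. Under the TPM scaling none was higher and 2 were lower, beside 8.79% and 11.1% of all genes. TNNT2 had 25.7 FPKM at D1 against 262 FPKM at E16 (log2 ratio -3.34) and ACTC1 had 363.5 FPKM at D1 against 756 FPKM at E16, while MYH7 had 457 FPKM at D1 against 226 FPKM at E16. In D1 vs. E11, 3 were higher and 1, TNNT2, was lower, with 30.2 FPKM at D1 against 461 FPKM at E11, and the median was 2.77. The shares of all genes in that comparison were 20.4% higher and 19.6% lower. Under the TPM scaling the counts of the list were the same, beside 9.69% and 43.3% of all genes.

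The regulators of MEF2 hold its class IIa histone deacetylases, their kinases, calcineurin, p38 and coactivators, and 23 of 27 listed genes were found. In E16 vs. E11, 7 of the 23 that passed were higher and 1 lower, with a median of 0.16 that turned to -0.61 under the TPM scaling, where 1 was higher and 5 lower. Over all genes 12.7% were higher and 11.5% lower, and 5.56% and 36.4% under the TPM scaling. SIK1, a kinase of the deacetylases, had 31.1 FPKM at E16 against 8.56 FPKM at E11 (log2 ratio 1.85). HDAC9, a deacetylase that represses MEF2, had 18.3 FPKM at E16 against 6.27 FPKM at E11 (log2 ratio 1.53). PPP3R1, the regulatory subunit of calcineurin, was the most abundant gene of the list at both stages and had 168 FPKM at E16 against 65.9 FPKM at E11 (log2 ratio 1.35). PPP3CA, a catalytic subunit of calcineurin, had 52.1 FPKM at E16 against 39.0 FPKM at E11 (log2 ratio 0.42), and the coactivator CREBBP had 35.3 FPKM at E16 against 44.0 FPKM at E11 (log2 ratio -0.32). SMAD3, which mediates TGF-beta signals, was the lower one, with 16.3 FPKM at E16 against 34.3 FPKM at E11.

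In D1 vs. E16 only SIK1 of the 23 was past the fold, with 97.5 FPKM at D1 against 21.9 FPKM at E16 (log2 ratio 2.15). The median was 0.27, and of all genes 10.4% were higher and 9.59% lower. In D1 vs. E11, 9 were higher and 1 lower, with a median of 0.40 that turned to -0.47 under the TPM scaling, where 2 were higher and 6 lower, and the shares of all genes were 20.4% and 19.6%, or 9.69% and 43.3% under that scaling. SIK1 had 114 FPKM at D1 against 7.11 FPKM at E11, and CAMK2G, a calcium and calmodulin-dependent kinase, had 60.4 FPKM at D1 against 13.4 FPKM at E11. SMAD3 had 7.79 FPKM at D1 against 28.5 FPKM at E11.

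**Figure D5:**
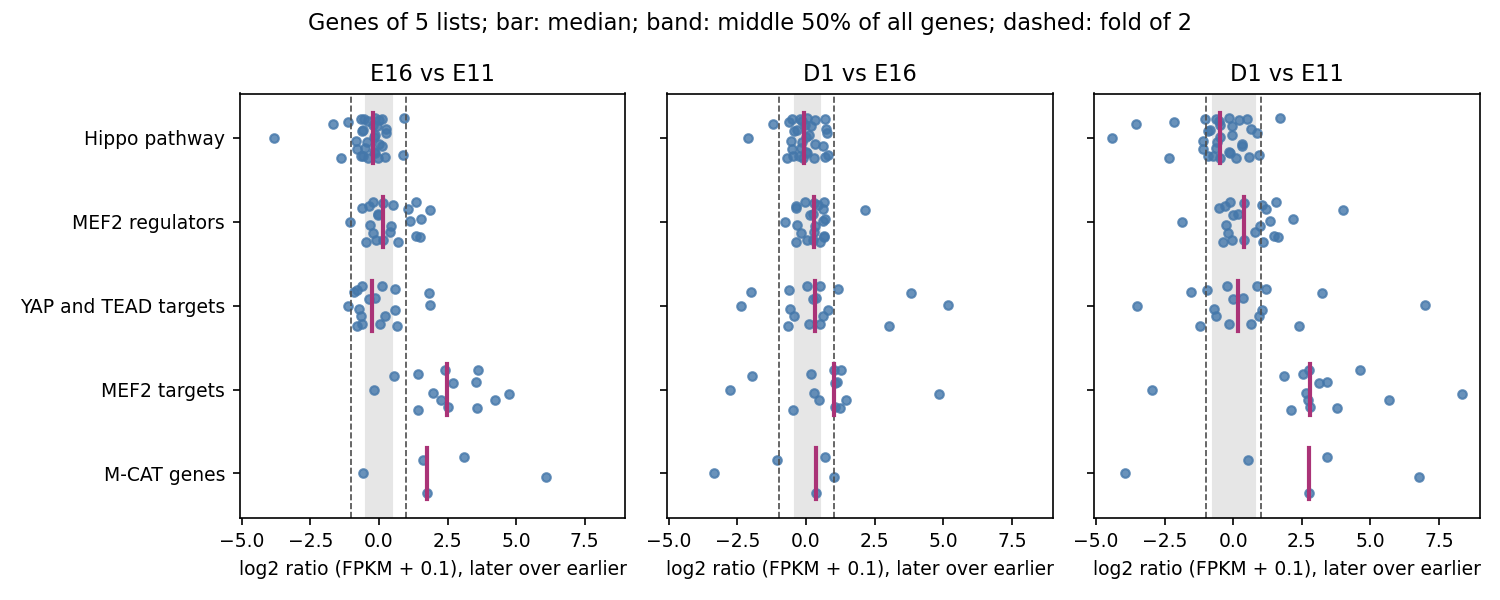
Log2 of the later over the earlier FPKM, each with 0.1 added, for the genes of 5 lists in the 3 comparisons; each point is 1 gene, the red bar is the median of the list, the gray band holds the middle 50% of all genes and the dashed lines mark a fold of 2. The MEF2 targets lie to the right in both comparisons with E11 (medians 2.47 and 2.78), and the Hippo genes lie around 0 with a few far to the left.

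Markers of muscle and of other tissues also differed between the stages, and in such bulk samples fewer cells of a type and less RNA per cell cannot be told apart. Of 10 markers of skeletal muscle fibers, 9 were higher at E16, with a summed level of 47620 FPKM at E16 against 2884 FPKM at E11. Fiber genes were thus present at each stage, and markers of other tissues, given below, were present at E11 as well. Markers of muscle progenitors and myoblasts summed to 125 FPKM at E16 against 89.4 FPKM at E11, with 2 of 5 higher. Under the TPM scaling 1 of these was higher and 1 lower. All 4 fat cell markers were higher, with a sum of 832 FPKM at E16 against 8.33 FPKM at E11. Of the 6 markers of Schwann cells and nerve 5 were higher and NEFL was lower (568 FPKM at E16 against 33.9 FPKM at E11 in sum), although SOX10, at a log2 ratio of 1.00, was within the fold under the TPM scaling. Of 7 endothelial markers 3 were higher (349 FPKM at E16 against 139 FPKM at E11), and under the TPM scaling 1 was higher. The shares of all genes in this comparison were 12.7% higher and 11.5% lower, and 5.56% and 36.4% under the TPM scaling.

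Other markers were lower at E16. All 6 cartilage markers were lower, with a sum of 83.5 FPKM at E16 against 253 FPKM at E11. Of 6 epidermal markers 5 were lower, with a sum of 4.62 FPKM at E16 against 103 FPKM at E11, and all 5 kidney markers were lower, with a sum of 4.50 FPKM at E16 against 158 FPKM at E11. None of these markers was listed at 0 at E11 or at E16. By these sums the E11 values held more RNA of genes that mark tissues other than muscle. Every comparison with E11 includes this difference, and its source was not tested. The cartilage, epidermal and kidney lists had the direction that YAP1 also had between E11 and E16. Their part in the lower YAP1 level was not tested. The fiber markers had the direction of MEF2A, MEF2C, TEAD3 and TEAD4, as did all 4 fat cell markers. So did 5 of 6 Schwann cell and nerve markers. In the FPKM values all 7 endothelial markers had it too, with a smallest log2 ratio of 0.38, and 3 of them passed the fold. The part of these markers' tissues in those levels was not tested either. Markers of fibroblasts and tendon (3526 FPKM at E16 against 1451 FPKM at E11, 1 of 5 higher), of red cells (2232 FPKM at E16 against 1105 FPKM at E11, 1 of 5 higher and 2 lower) and of leukocytes (30.1 FPKM at E16 against 28.2 FPKM at E11, none of 3 past the fold) did not move as whole lists. Under the TPM scaling 1 fibroblast and tendon marker was higher and 1 lower, and 2 red cell markers were lower and none higher. For leukocytes 1 of 3 was lower under that scaling.

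Across hatching the fiber markers stayed within the fold, 10 of 10, with 46650 FPKM at D1 against 33575 FPKM at E16. Of all genes 10.4% were higher and 9.59% lower there. The epidermal markers summed to 2.00 FPKM at D1 against 3.25 FPKM at E16, the kidney markers to 3.48 FPKM at D1 against 3.17 FPKM at E16, and the cartilage markers to 43.6 FPKM at D1 against 58.8 FPKM at E16. Of 3 red cell markers that passed the filter 2 were lower (602 FPKM at D1 against 1570 FPKM at E16 in sum). Lower as well were 2 of 5 progenitor and myoblast markers and 1 of 5 fibroblast and tendon markers. The same held for 1 of 3 leukocyte markers (2 under the TPM scaling) and 1 of 3 cartilage markers. Of 7 endothelial and 4 fat cell markers 1 each was higher, and none of 6 Schwann cell and nerve markers passed the fold.

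Since the study looked at lncRNAs within 300 kb of genes, the lncRNAs around the 9 genes were listed as well. There were 23 of them, near 6 of the genes. Several are assigned to the same locus, so the counts are of transcripts and not of separate loci. In E16 vs. E11, 10 passed the filter, of which 4 were higher and 1 lower, where 34.3% of all 983 lncRNAs that passed were higher and 20.5% lower. In D1 vs. E16, 7 passed, of which 1 was higher and 3 were lower, where 19.3% of 664 lncRNAs were higher and 26.8% lower. In D1 vs. E11, 7 passed, of which 4 were higher and 2 lower, where 36.1% of 771 lncRNAs were higher and 29.8% lower. Most of them had an FPKM near or under 1, and the number of reads behind such ratios is not given.

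The lncRNA with the highest level was lnc00003323, at 52.8 kb from TEAD4 on chromosome 1 from 75124713 to 75142396. It had 18.0 FPKM at E16 against 7.24 FPKM at E11 (log2 ratio 1.31), and TEAD4 had a log2 ratio of 1.24 in the same table over its transcripts. At D1 it had 7.04 FPKM against 12.7 FPKM at E16 (log2 ratio -0.84), and TEAD4 had a log2 ratio of -0.45 in that table. Both were thus highest at E16, as seen in the merged values of 3 stages.

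In the locus of VGLL2 itself, lnc00053430 had 2.31 FPKM at E16 against 0.760 FPKM at E11 (log2 ratio 1.49) and 0.314 FPKM at D1 against 1.63 FPKM at E16 (log2 ratio -2.06). Transcripts of 1 locus can share reads, and no strand is given in the tables. The lncRNA nearest to TEAD1, lnc00068021 at 0.322 kb, had 0.370 FPKM at D1 against 1.23 FPKM at E16 (log2 ratio -1.50). At 46.7 kb from WWTR1, lnc00088405 had 0.515 FPKM at D1 against 1.66 FPKM at E16 (log2 ratio -1.51). TEAD1 and WWTR1 stayed within the fold in that table.

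MEF2C had the most lncRNAs past the fold around it, and also the most lncRNAs listed within 300 kb. The nearest, lnc00100364 at 28.5 kb, had 1.21 FPKM at D1 against 0.203 FPKM at E16 (log2 ratio 2.11). The next, lnc00100350 at 37.5 kb, had 0.685 FPKM at E16 against 1.51 FPKM at E11 (log2 ratio -1.04) and 0.120 FPKM at D1 against 1.25 FPKM at E11 (log2 ratio -2.62). In the same locus, lnc00100351 stayed within the fold in E16 vs. E11 (log2 ratio -0.53). Another 3 lncRNAs lie farther from MEF2C and were past the fold, and they are named here after their values were seen. At 45.8 kb, lnc00100348 had 4.62 FPKM at E16 against 0.0651 FPKM at E11 (log2 ratio 4.84), and lnc00100345 had 4.21 FPKM at E16 against 0.158 FPKM at E11 (log2 ratio 4.06). Both are assigned to the same locus and can share reads, so they are not separate neighbours. At 89.3 kb, lnc00100335 had 1.10 FPKM at D1 against 0.0357 FPKM at E11 (log2 ratio 3.15).

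The genes whose pattern over the stages came nearest to each of the 9 were found by the distance between their 3 log2 ratios, among 10297 transcripts with an FPKM of at least 1 at each stage of each table. Nearest to MEF2A were SIRT3, SOX6 and PSMA5, with log2 ratios for SIRT3 of 1.25 in E16 vs. E11 and 1.14 in D1 vs. E11. Nearest to MEF2C were TRMT13, BLOC1S5 and PROS1. Nearest to YAP1 were ARG2, ip3ka and ADAMTS3, with log2 ratios for ARG2 of -1.27 in E16 vs. E11 and -1.43 in D1 vs. E11.

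For TEAD4, the nearest were MAPK14, TSPAN9 and ANXA11. MAPK14 encodes p38 alpha, a kinase of MEF2 proteins, and had log2 ratios of 1.14 in E16 vs. E11 and -0.36 in D1 vs. E16. TSPAN9 lies on chromosome 1 as TEAD4 does, at 141 kb from its locus. TEAD1 was nearest to B4GALT2, RPL10A and GNG5, TEAD3 to CAPRIN2, C1orf21 and ZCCHC24, VGLL2 to RPS20, PSMG3 and C1QA, WWTR1 to WDR19, FRZB and SLC4A3, and MEF2D to POLR2E, RIPK2 and ASCC3.

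Such likeness over 3 merged values is common. Within a distance of 0.25 on the log2 scale there were 35 other symbols for YAP1, 48 for MEF2A, 50 for TEAD4, 75 for MEF2C, 77 for TEAD3, 102 for TEAD1, 175 for VGLL2, 254 for WWTR1 and 438 for MEF2D. The patterns of YAP1 and MEF2A were shared with the fewest symbols, and that of MEF2D, which lay near the middle of all genes, with the most.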

How the data were processed

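Total RNA of 6 leg muscle libraries, 2 per stage, was depleted of ribosomal RNA and sequenced on an Illumina HiSeq platform. Per the methods and labels, the authors mapped reads with TopHat2 (Bowtie and Trim Galore are also named) to the galGal4 genome with Ensembl release 73, and ran Cufflinks 2.0.2 and Cuffdiff. The authors deposited 3 tables of FPKM values, 1 per pair of stages, with both libraries of a stage merged. Their columns of fold changes, test statistics, p and q hold the study's own comparisons and were not used.

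Log2 ratios of the later to the earlier FPKM were computed with a pseudocount of 0.1. Entries marked as holding too many fragments (10, 16 and 16 in E16 vs. E11, D1 vs. E16 and D1 vs. E11) were left out. With 1 value per stage no test could be made. Loci were counted from 0 in the tables and are printed counted from 1. Sequences were not used here.

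The members and all gene lists were chosen with earlier results of these data known. Named were all transcripts of the members and, per list, the 3 most abundant genes in E16 vs. E11 and, per comparison and direction, the 2 genes past the fold with the largest ratio. Also named were the 3 symbols nearest in pattern to each member, and the nearest 2 lncRNAs past the fold within 300 kb. Alternatives were pseudocounts of 1 and 0.01, no minimum, a minimum of 5, a fold of 1.5, median centring, TPM, sums over transcripts and, chosen after seeing the data, TPM without the 100 highest entries. Python 3.11.15 with numpy 2.4.6, pandas 2.3.3 and matplotlib 3.10.9 was used.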

Additional observations from a re-analysis of the deposited data

How the results depend on the processing

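No paired analysis was possible because each table holds 1 value per stage over both libraries, and for the same reason leaving out a library and the replicate block could not be run. The number of the 13 transcripts past the fold in E16 vs. E11, 6, was 2 in TPM and 2 in TPM without the 100 highest entries, and in D1 vs. E11 it was 2 and 1 in place of 4. Members that lost or gained the fold there did so with the shift of all transcripts that these scalings carry. In D1 vs. E16 the count of 1 became 0 with a minimum FPKM of 5, 2 with a fold of 1.5 (TEAD1 being the second) and 0 when summed over transcripts. Under the other alternatives the counts ran between 4 and 8 in E16 vs. E11 and between 3 and 5 in D1 vs. E11, and no member that was past the fold changed direction under any alternative run. YAP1 was past the fold in both comparisons with E11 under every alternative run. MEF2C and the major TEAD3 transcript sat on the threshold in E16 vs. E11 and missed it with a pseudocount of 1, at 0.9973 and 0.96. The spread between libraries is not known.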
